A study of Mus musculus with 24 samples.

Results

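DB#1 and DB#3 are mouse melanoma cell lines that were recovered from the brain, and the comparison of their transcriptomes is described here gene by gene. DB#1 was measured on 4 arrays and DB#3 on 3 arrays, together 7 of the 24 arrays of the series. In the labels the lines are B16F1-GFP-DB#1 and B16F1-GFP-DB#3, and both are called melanoma cells. The arrays were taken by these line names.

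All melanoma lines of the study go back to B16F1, a pigmented melanoma of C57BL/6 mice, and carry green fluorescent protein (GFP). B16F1-GFP-M (M, 3 arrays) is the parental line. B16F1-GFP-D (D, 4 arrays) was isolated from mice with a syngeneic tumour held in check by immunotherapy, after long dormancy, and the DB lines, DB#2 (3 arrays) among them, are the generation that followed D in a brain site. The myeloid lines M0 (4 arrays) and J365 (3 arrays) entered the fit for the estimate of the spread and are not described further.

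Cells of the melanoma lines were grown in plain culture medium with serum after in vitro amplification, so each array shows cultured cells and not cells inside a brain. Each name stands for 1 line. How many animals or clones founded a DB line was not given in the sources used here, nor whether the arrays of 1 line came from separate cultures, so p-values measure the spread between these samples, which may be technical. In RNA from a whole culture, fewer cells that express a gene and less RNA per cell cannot be told apart.

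Tumour cells that outlive a therapy can stay in a host for long periods without growing out, a state called dormancy or minimal residual disease. Melanoma cells are known to shift between a differentiated, pigment-producing state and less differentiated states, and cells that reach the brain meet a tissue poor in collagen and rich in lipids, astrocytes and microglia. The comparison of DB#1 with DB#3 asks how far lines that followed 1 source share their expression, and in which genes they differ.

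The values are log2 signals relative to the 75th percentile of each array, so 0 is that percentile itself. A difference is DB#1 minus DB#3, and a positive one means a higher level in DB#1. A gene was tested where all 4 DB#1 arrays or all 3 DB#3 arrays read its probe well above background, as the scanner software marked it, and it was called at an adjusted p under 0.05 (limma, Benjamini-Hochberg, slide as a block). Of the 7 arrays between 48.7% and 53.8% of the probes were well above background. D replicate 3 stood apart at 89.9%. It is not part of the comparison but enters the common spread, and without it 78 genes were called, all 59 described below included.

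Most of the transcriptome differed little between DB#1 and DB#3. Of 20556 genes tested, 59 were called (0.287%), 46 of them higher in DB#1 (0.224% of genes tested) and 13 lower (0.0632%). For 17618 genes (85.7%) the 95% confidence interval of the difference lay within 2-fold in either direction. The median absolute difference was 0.097 and the 95th percentile 0.49 on the log2 scale. At an unadjusted p under 0.05 there were 710 genes (3.45%). A further 90 genes differed by at least 2-fold without being called. By the same rule DB#1 differed from DB#2 at 1965 of 21065 genes (9.33%) and DB#3 from DB#2 at 1560 of 20978 (7.44%), so that DB#2 stood apart from both. Against D, the line before them, DB#1 was called at 125 of 20203 genes (0.619%) and DB#3 at 101 of 20033 (0.504%), and against M at 1163 of 20708 (5.62%) and 809 of 20581 (3.93%). D replicate 3 is part of the comparisons with D, and without it they gave 123 and 116 genes. These comparisons share arrays and are given side by side only.

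The array's slide carried more of the variation than the line. Over 19361 genes read on all 7 arrays, arrays of different lines on the same slide correlated at a mean of 0.994 (4 pairs), while arrays of the same line on different slides correlated at 0.985 (8 pairs). Over all 20556 genes tested, slide took 67.2% of the sum of squares of the 7 arrays and line 14.1%. There are more slides than lines, so slide can take a larger share by its number of groups alone. Each slide held both lines, and for all 59 called genes the difference had the same direction on each of the 3 slides. The values of DB#1 and DB#3 did not overlap in any of the 59 called genes, against 1176 of all genes tested (5.72%). The direction by slide was not counted over all genes tested. The 59 genes were called from these same arrays, so neither count is separate support for the calls.

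**Figure D1:**
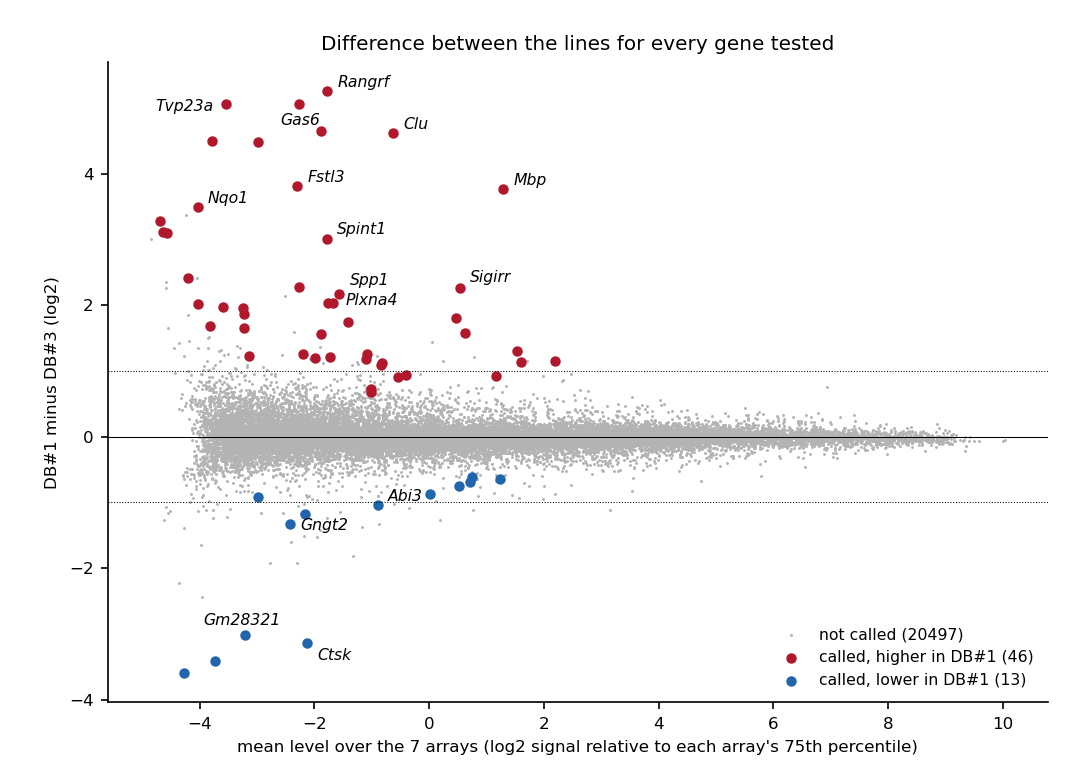
Difference between DB#1 and DB#3 (log2, y axis) against the mean level over the 7 arrays (log2 signal relative to the 75th percentile, x axis) for 20556 genes, with called genes in red (46 higher in DB#1) and blue (13 lower). Most genes lie between the dotted lines at 2-fold, and the points above a difference of 3 belong to genes whose mean level is below 2.

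Rangrf, which encodes a factor binding the Ran GTPase of nuclear transport, was far lower in DB#3. Its brightest probe read 0.24, 0.47, 0.54 and 0.65 on DB#1 replicates 1 to 4 and -4.96, -5.15 and -4.22 on DB#3 replicates 3 to 5, where it was not well above background on any array. By this probe DB#1 was at least 27.2-fold higher (fitted difference 5.25 ± 0.21 (SE), adjusted p 2.99e-11). The other 2 probes, each read on 2 of 3 DB#3 arrays, differed by 3.24 ± 0.36 and 3.74 ± 0.23 (SE). In M, D and DB#2 the brightest probe was read at 0.21 to 1.07, as in DB#1, so DB#3 was the line with the low level.

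Tvp23a, a homologue of a vesicle protein of the Golgi, showed the same pattern. It was at -0.95, -1.24, -1.76 and -1.53 in DB#1 and at -6.45, -6.58 and -6.25 in DB#3, where it was not well above background on any array. The level in DB#1 was therefore at least 7.56-fold higher (fitted difference 5.06 ± 0.27 (SE), adjusted p 1.67e-09). M lay at -1.44 to -0.82 and DB#2 at -1.05 to -0.56, and D was between, at -3.20 to -2.07.

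Gas6 is the secreted ligand of the receptor tyrosine kinases Tyro3, Axl and Mertk. Its signal was 0.08, -0.24, -0.07 and -0.08 in DB#1 and -4.65, -4.64 and -6.27 in DB#3, again not well above background on any DB#3 array. DB#1 was at least 18.5-fold higher (fitted difference 5.06 ± 0.56 (SE), adjusted p 4.94e-05). DB#2 resembled DB#1 at -0.15 to 0.22. M was at -5.34 to -4.02, and D at -4.81 to -3.73 apart from replicate 3, which read -0.68.

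The RefSeq promoter windows of these genes (assembly GRCm38.p6, from 250 bases before to 50 after the start, written on the gene's strand) are shown for Rangrf and Gas6, which are among the most different of the higher genes, and for Ctsk, which leads the lower ones among genes read on all 7 arrays. CG pairs, the sites of DNA methylation, are in capitals. The Rangrf window lies at chr11:68973806-68974105 on the minus strand and holds 14 CG pairs, a number that 36.3% of all 32851 listed windows reach. The Gas6 window, chr8:13494486-13494785 on the minus strand, holds 17 (reached by 31.4%), and the Ctsk window, chr3:95498960-95499259 on the plus strand, holds 2 (reached by 85.9%). Windows were listed for 33 of the 48 called genes with a symbol, with a median of 11 CG pairs over 41 windows. The median over all windows was 7. All windows were not limited to genes tested here, so these medians come from unlike sets. No methylation was measured here, and the count of CG pairs is a description only.
Rangrf: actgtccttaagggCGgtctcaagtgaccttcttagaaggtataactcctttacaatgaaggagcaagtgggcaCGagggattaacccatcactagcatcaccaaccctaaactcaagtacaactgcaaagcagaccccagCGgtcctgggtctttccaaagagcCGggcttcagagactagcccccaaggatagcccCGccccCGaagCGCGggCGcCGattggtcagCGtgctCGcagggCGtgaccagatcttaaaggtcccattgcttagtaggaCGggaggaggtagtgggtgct
Gas6: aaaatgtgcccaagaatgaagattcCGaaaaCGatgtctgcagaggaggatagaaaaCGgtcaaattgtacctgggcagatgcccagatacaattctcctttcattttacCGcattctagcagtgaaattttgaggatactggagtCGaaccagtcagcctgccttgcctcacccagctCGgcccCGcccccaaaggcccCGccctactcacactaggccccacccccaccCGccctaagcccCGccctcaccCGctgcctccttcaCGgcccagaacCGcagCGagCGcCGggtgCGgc
Ctsk: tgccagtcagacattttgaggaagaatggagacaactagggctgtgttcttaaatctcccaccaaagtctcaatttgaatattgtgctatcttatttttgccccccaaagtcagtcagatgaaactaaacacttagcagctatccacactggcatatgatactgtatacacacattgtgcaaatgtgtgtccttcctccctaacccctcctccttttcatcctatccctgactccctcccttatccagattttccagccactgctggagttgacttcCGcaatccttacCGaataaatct

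**Figure D2:**
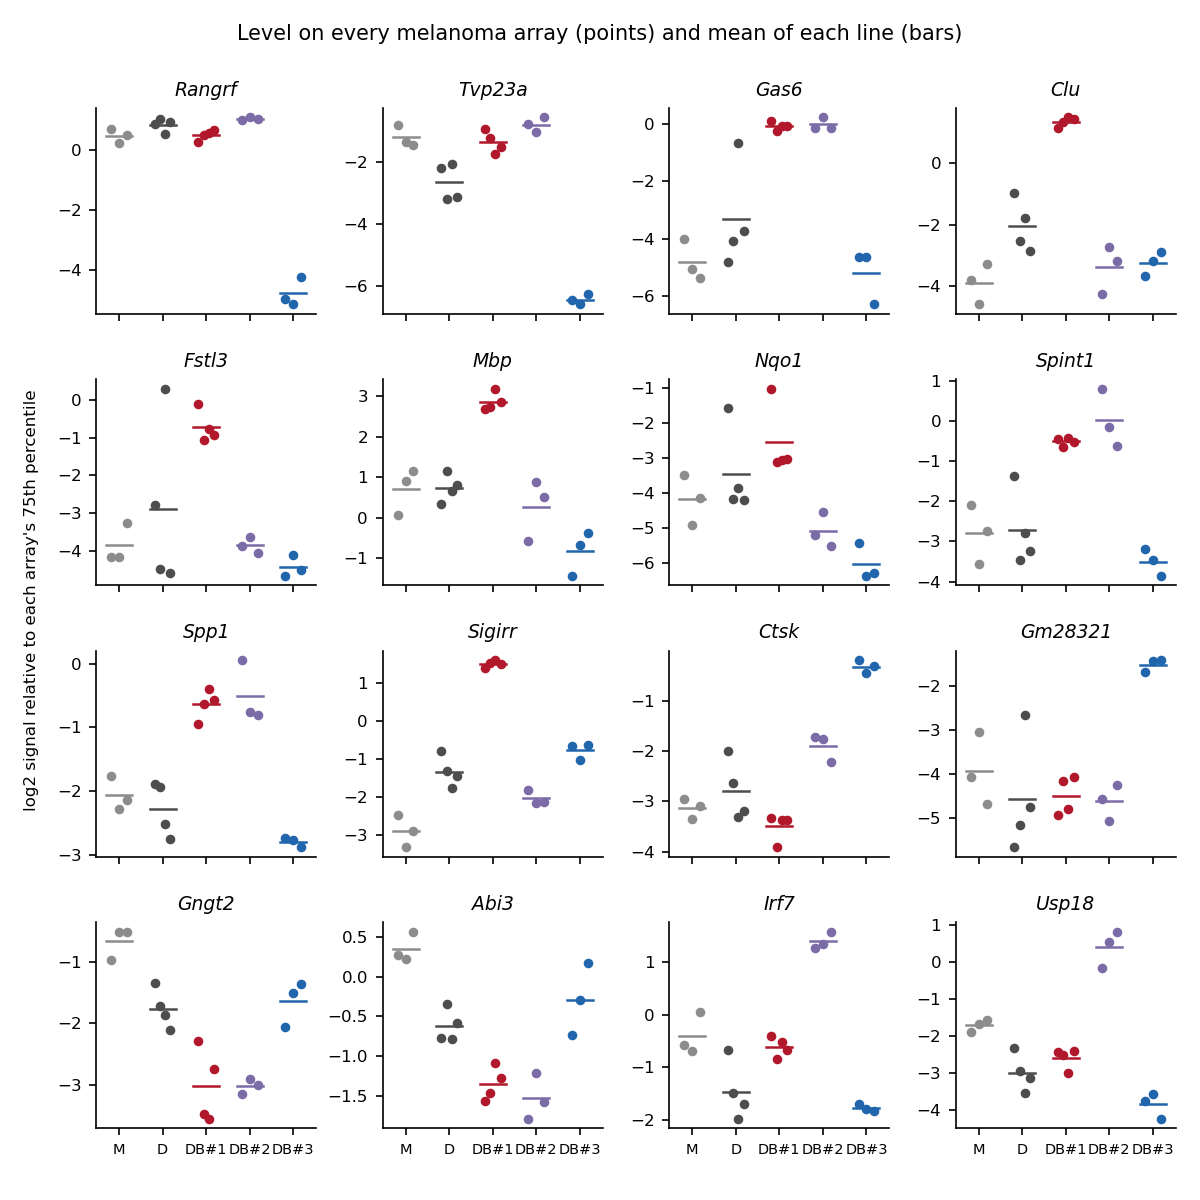
Level of 16 called genes on every array of the 5 melanoma lines (points, log2 signal relative to the 75th percentile of the array) with the mean of each line as a bar. Rangrf and Tvp23a are lowest in DB#3, Clu, Mbp and Sigirr are highest in DB#1, and Ctsk and Gm28321 are highest in DB#3.

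Further secreted proteins were among the genes higher in DB#1. Clu, the extracellular chaperone clusterin, was read on all 7 arrays, at 1.15, 1.33, 1.49 and 1.43 in DB#1 and at -3.68, -3.18 and -2.90 in DB#3. The difference was 4.61 ± 0.36 (SE, adjusted p 7.3e-07), a 24.5-fold change. No array of M, D or DB#2 came near the DB#1 level: D reached -0.98 at most, M -3.28 and DB#2 -2.72. Fstl3, a secreted binder of activin and myostatin, was at -0.09, -1.04, -0.77 and -0.92 in DB#1 and at -4.67, -4.12 and -4.51 in DB#3, where it was well above background on 1 array (3.81 ± 0.74 (SE), adjusted p 0.0301). In Fstl3 D replicate 3 (0.31) departed from the other D arrays (-4.58 to -2.79). The Fstl3 call held in 8 of the 21 alternative settings that tested it. Among these 8 was the fit of only the 7 arrays of DB#1 and DB#3, which holds no D array. There the difference was 3.80 ± 0.098 (SE, adjusted p 0.00113). Spp1, the matrix phosphoprotein osteopontin, was at -0.95, -0.64, -0.40 and -0.57 in DB#1 and at -2.74, -2.78 and -2.88 in DB#3 (2.18 ± 0.28 (SE), adjusted p 0.000349). Its M level (-2.29 to -1.77) and D level (-2.76 to -1.90) lay nearer DB#3, and its DB#2 level (-0.81 to 0.05) nearer DB#1. Tslp, the cytokine thymic stromal lymphopoietin, was not well above background on any DB#3 array and was at least 2.84-fold higher in DB#1 (1.98 ± 0.20 (SE), adjusted p 1.75e-05).

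Among membrane and receptor genes, Sigirr, a member of the interleukin-1 receptor family that dampens its signalling, was at 1.40, 1.54, 1.61 and 1.498 in DB#1 and at -0.65, -1.01 and -0.63 in DB#3. The difference was 2.26 ± 0.19 (SE, adjusted p 1.31e-06). The spread within each line was small beside it, at an SD of 0.09 (n = 4) and 0.21 (n = 3). Cd72, a co-receptor best known from B cells, had tight values, 1.21 to 1.28 in DB#1 and -0.58 to -0.52 in DB#3. It differed by 1.80 ± 0.29 (SE, adjusted p 0.00556), by 2 probes at 1.78 and 1.80. M (-3.20 to -2.16) and D (-2.54 to -0.81) lay below both lines in Cd72. The Cd72 call held in 18 of 22 alternative settings. Plxna4, a semaphorin receptor of axon guidance, was at -0.74, -0.76, -0.96 and -0.74 in DB#1 and at -2.33, -2.66 and -3.56 in DB#3 (2.03 ± 0.23 (SE), adjusted p 8.63e-05). M and D lay at -1.49 to -0.75, so the low level was that of DB#3.

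Further membrane genes were also higher in DB#1. Ptgfrn, a partner of tetraspanins, and Lrig1, which restrains receptors of the epidermal growth factor family, were dark on all DB#3 arrays, and DB#1 was at least 2.17-fold and at least 2.27-fold higher, calls that held in 10 and 7 of 21 alternative settings. Mfsd2a, a lysophospholipid transporter, differed by 1.87 ± 0.35 (SE, adjusted p 0.0225), was read on 1 DB#3 array and stayed called in 8 of 21 settings. Tmem88, known to restrain Wnt signalling, was at -1.005 to -0.75 in DB#1 and -3.02 to -2.85 in DB#3. It was also low in DB#2 (-3.54 to -2.97) and not in M or D (-1.80 to -0.88). Crb2, an apical polarity protein, was at -0.76 to -0.33 in DB#1 and -1.99 to -1.66 in DB#3 (1.26 ± 0.19 (SE), adjusted p 0.00237), and both were above M and D, where no array exceeded -3.88. Spint1, an inhibitor of hepatocyte growth factor activator, was at -0.64 to -0.41 in DB#1 and -3.86 to -3.18 in DB#3 (3.01 ± 0.42 (SE), adjusted p 0.000861; 2 probes, 3.00 and 3.01).

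Mbp, myelin basic protein, was among the brighter called genes. It read 2.67, 2.73, 3.18 and 2.86 in DB#1 and -1.43, -0.67 and -0.37 in DB#3. The difference was 3.77 ± 0.37 (SE, adjusted p 1.01e-05). Across 3 probes of Mbp it ran from 3.33 to 3.77. M, D and DB#2 lay at -0.58 to 1.16, below every DB#1 array, and DB#2 replicate 1 (-0.58) within the range of DB#3. Because Mbp marks oligodendrocytes and the lines came from a brain site, the other markers of that cell type were set beside it. Of 8 oligodendrocyte markers, 5 were tested and Mbp alone was called. Olig1 and Olig2, which define the lineage, were not well above background on any of the 7 arrays. The mean level of the 8 markers ran from -2.03 to -1.96 in DB#1 and from -2.49 to -2.09 in DB#3.

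Markers of other cell types were read in part, in both lines. Astrocyte markers were above background on every array for 6 of 8 genes, among them S100b (3.70 to 3.94 in DB#1, 3.87 to 4.14 in DB#3), which melanoma cells also express, and Aldh1l1 (2.41 to 3.44 and 3.07 to 3.55). The mean level of the 8 was -1.86 to -1.71 in DB#1 and -1.68 to -1.54 in DB#3. Neuron markers were read for 1 of 8 genes (Snap25, 2.04 to 2.61 and 1.99 to 2.35), endothelial and mural markers for 2 of 9, fibroblast markers for 2 of 8 (Pdpn, 2.96 to 3.32 and 2.76 to 3.02, the brighter) and microglia and macrophage markers for 4 of 11, Itgam (2.82 to 3.23 and 2.73 to 3.12) and Csf1r (0.84 to 2.34 and 0.77 to 2.09) among them. Blood markers were read for 4 of 12 genes in DB#1 and 5 of 12 in DB#3. Not well above background on any of the 7 arrays were Rbfox3 and Syt1 of neurons, Cldn5 and Cdh5 of endothelium, Aif1, P2ry12 and Adgre1 of microglia and macrophages, and Ptprc of blood. No member of these lists other than Mbp was called.

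The 9 melanoma markers were read on every array, with a mean level of 6.94 to 7.08 in DB#1 and 6.91 to 7.05 in DB#3. In the wider list of melanin synthesis and melanosome genes 0 of 25 were called, and 22 had an interval within 2-fold, shares near those of all genes tested (0.287% called, 85.7% within 2-fold). By unadjusted p under 0.05 the count was also 0. The list's median difference was 0.0060, beside -0.0052 for all genes tested. Tyr, the rate-limiting enzyme of melanin synthesis, was at 3.41 to 3.85 in DB#1 and 3.17 to 3.65 in DB#3, and Mitf, the master regulator of the lineage, at 6.62 to 6.86 and 6.61 to 6.79.

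Genes of cell division and respiration differed little. All 44 genes of cell cycle and replication and all 41 of oxidative phosphorylation had an interval within 2-fold, 0 of each list were called, and their medians were -0.029 and -0.027. No gene of either list reached an unadjusted p under 0.05. Collagens and matrix proteins (0 of 26 called, median 0.012), enzymes of collagen folding and cross-linking (0 of 21, 0.0078), class I antigen presentation (0 of 22, -0.034), integrins and cadherins (0 of 24, -0.079), sterol and fatty acid synthesis (0 of 35, 0.064) and glycolysis and hypoxia (0 of 34, 0.028) had no called gene either. Their counts at an unadjusted p under 0.05 were 3, 2, 2, 0, 2 and 4. As shares these are 11.5%, 9.52%, 9.09%, 0%, 5.71% and 11.8%, beside 3.45% of all genes. Intervals within 2-fold numbered 22, 19, 20, 17, 34 and 26, beside 85.7% of all genes. With 0.287% of all genes called, 0 called genes in a list of this size is near the background.

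A further 8 lists also had 0 genes called: melanocyte lineage regulators (14 tested, median -0.013), matrix proteases and inhibitors (20, -0.10), Wnt and Notch pathways (28, -0.046), MAPK output and early response genes (29, -0.028), cell cycle inhibitors and p53 targets (23, 0.065), detoxification of lactate, aldehydes and carbonyls (32, -0.14), ATF4 amino acid stress (28, 0.047) and contractile and actin-bundling genes (34, -0.067). At an unadjusted p under 0.05 they held 3, 3, 3, 1, 0, 2, 0 and 1 genes. For the lineage regulators that is 21.4% and for the matrix proteases 15%, beside 3.45% of all genes, and 13 of the 20 proteases had an interval within 2-fold. In 7 further lists a single gene was called: Spp1 among 16 genes of the dedifferentiated melanoma state, Ctsk among 26 cathepsins and lysosomal genes, Plxna4 among 48 of axon guidance and neuronal adhesion, Tslp among 19 chemokines and cytokines, Fstl3 among 35 of the TGF-beta and BMP pathway, Nqo1 among 41 of glutathione and redox and Clu among 16 of S100 and complement. Over all genes tested 0.287% were called. At an unadjusted p under 0.05 these lists held, in the same order, 2, 1, 6, 1, 2, 2 and 1 genes. For the dedifferentiated state and for axon guidance that is 12.5% each, beside 3.45% of all genes. Nqo1, a quinone reductase induced by oxidative stress, was dark on all DB#3 arrays. It was at least 3.33-fold higher in DB#1 (3.49 ± 0.57 (SE), adjusted p 0.00588) and stayed called in 15 of 21 alternative settings. It rested unevenly on the arrays: DB#1 replicate 1 read -1.02 and the other DB#1 arrays -3.12 to -3.01.

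**Figure D3:**
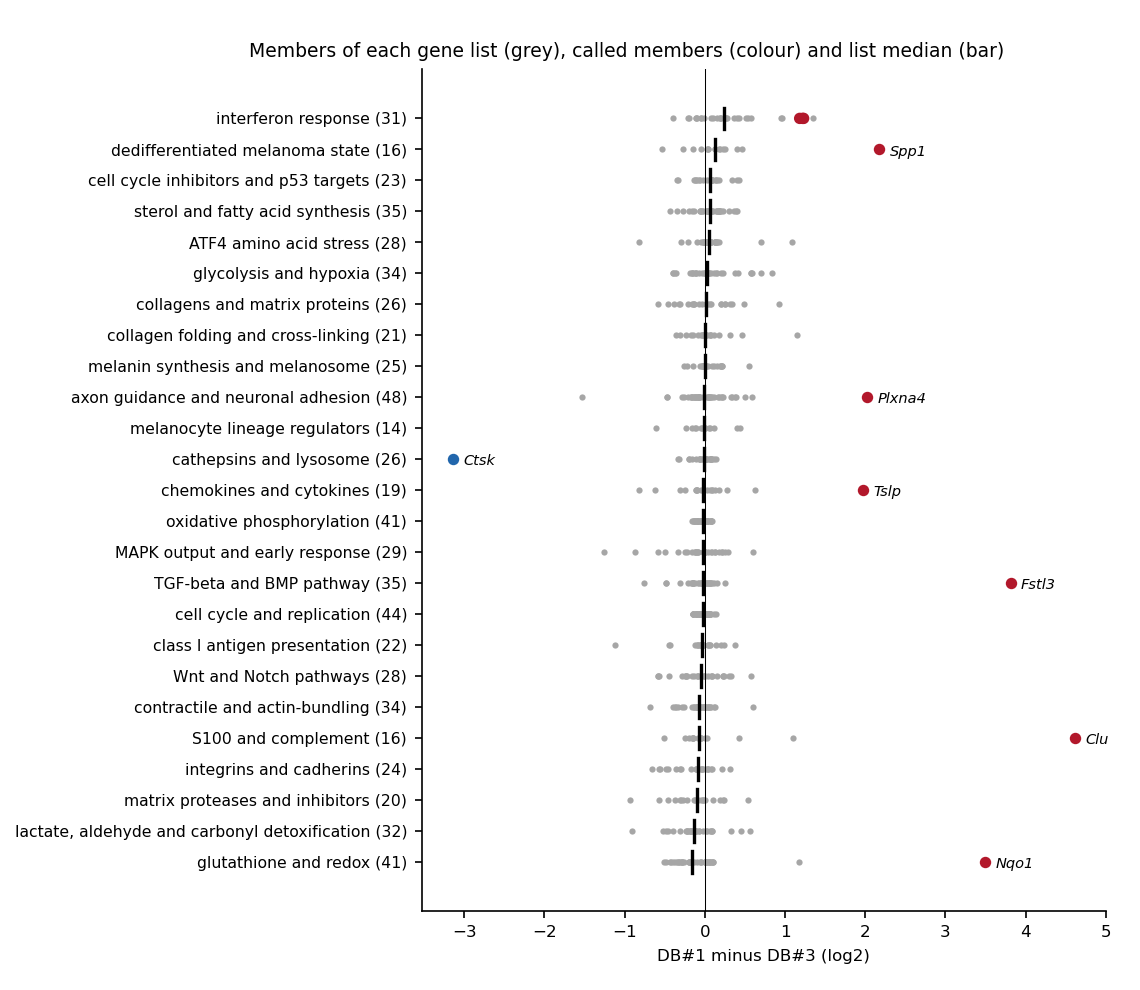
Difference between DB#1 and DB#3 (log2, x axis) for every tested member of 25 gene lists (rows, number tested in parentheses), with called genes in colour and the list median as a bar. Medians lie between -0.15 and 0.24, and called genes stand alone in their lists except for the 3 of the interferon response.

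Among the pathway lists the interferon response had the highest median and was the only one with more than 1 called gene. Of 31 genes tested, 3 were called, all higher in DB#1, and 22 were higher and 9 lower by direction. The median was 0.24 and 7 genes (22.6%) reached an unadjusted p under 0.05, beside 3.45% of all genes tested. Irf7, the transcription factor that drives type I interferon genes, was at -0.40, -0.83, -0.52 and -0.66 in DB#1 and at -1.69, -1.79 and -1.83 in DB#3 (1.18 ± 0.22 (SE), adjusted p 0.0244). Usp18, which removes ISG15 from proteins, was at -2.44, -2.52, -3.02 and -2.42 and at -3.76, -3.56 and -4.25 (1.23 ± 0.25 (SE), adjusted p 0.042). Rtp4, a receptor transporter induced by interferon, was at -1.42 to -1.02 and at -2.70 to -1.97 (1.22 ± 0.23 (SE), adjusted p 0.0249).

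The interferon calls were not firm. With the replicate number as a block, in place of slide or beside it, with only the 17 melanoma arrays, under quantile normalization, with normexp background correction, with no filter on dim probes, or without DB#1 replicate 1, DB#3 replicate 3 or DB#3 replicate 5, 0 of the list were called, while the median stayed between 0.10 and 0.34 in all alternatives. The uncalled members ran from -0.40 (Isg20) to 1.35 (Oas2, a sensor of double-stranded RNA, with means of -3.87 in DB#1 and -5.23 in DB#3 and an adjusted p of 0.371). Isg15 differed by 0.16, Ifit1 by -0.042 and Bst2 by -0.092, and Cxcl10 by 0.95 with an adjusted p of 0.629. DB#2 lay above both lines for Irf7 (1.27 to 1.58), Usp18 (-0.16 to 0.82) and Rtp4 (0.99 to 2.00).

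Fewer genes were higher in DB#3. Ctsk, the collagen-degrading lysosomal protease cathepsin K, was at -0.19, -0.46 and -0.32 in DB#3 and at -3.33, -3.91, -3.38 and -3.37 in DB#1. DB#1 was lower by 8.82-fold, with a difference of -3.14 ± 0.30 (SE, adjusted p 9.52e-06). M (-3.35 to -2.95) and D (-3.32 to -1.999) lay near DB#1, and DB#2 (-2.22 to -1.73) between. Gm28321, a gene known only by its number, was at -1.68 to -1.41 in DB#3 and at -4.94 to -4.08 in DB#1, where 2 of 4 arrays were well above background (-3.02 ± 0.43 (SE), adjusted p 0.0011).

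Gngt2 and Abi3 are the adjacent tested genes of a called pair on chromosome 11, with 0 tested genes between them. Gngt2, a gamma subunit of a G protein of cone photoreceptors, was at -2.05, -1.51 and -1.36 in DB#3 and at -2.28, -3.46, -3.55 and -2.74 in DB#1 (-1.33 ± 0.24 (SE), adjusted p 0.0146; 2 probes, -1.33 and -1.18). Abi3, a component of complexes that regulate actin, was at -0.74, -0.30 and 0.17 in DB#3 and at -1.56, -1.47, -1.08 and -1.28 in DB#1 (-1.04 ± 0.14 (SE), adjusted p 0.000861). Abi3 stayed called in 20 of 22 alternative settings and Gngt2 in 12, and Gngt2 was lost without DB#1 replicate 2 or 3 and without DB#3 replicate 4 or 5. Both genes were highest in M among the melanoma lines, at -0.97 to -0.51 and 0.22 to 0.57, and DB#2 was as low as DB#1. No other called genes with a symbol were next to each other. Sigirr and Irf7 on chromosome 7 had 7 tested genes between them, whose differences ran from -0.24 to 0.24, and Rangrf and Tmem88 on chromosome 11 had 14. On chromosome 10, Fstl3 and Arhgap45 had 10 between them (-0.44 to 0.16), and Arhgap45 and Reep6 had 18 (-0.33 to 0.21). Fstl3 and Arhgap45 were higher in DB#1 and Reep6 was lower. The 48 called genes with a symbol lay on 17 of 20 chromosomes, and the chromosome medians ran from -0.029 to 0.0077.

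The other genes with a symbol that were lower in DB#1 differed by less than 2-fold. They were Chst10, a sulfotransferase of neural glycans (-0.92 ± 0.18 (SE), adjusted p 0.0326), Map4k1, a kinase upstream of JNK signalling (-0.87 ± 0.15, adjusted p 0.00744), Zfp979 (-0.76 ± 0.11, adjusted p 0.00131), Reep6 (-0.69 ± 0.14, adjusted p 0.0326), Khk, which phosphorylates fructose (-0.64 ± 0.13, adjusted p 0.0369), and Dlc1, a GTPase-activating protein (-0.62 ± 0.12, adjusted p 0.0265). The probes of Zfp979 disagreed in sign, at -0.76 and 0.39, so its direction is uncertain. Over 22 alternative settings Zfp979 stayed called in 17, Map4k1 in 16, Reep6 in 9, Chst10 in 8 and Khk and Dlc1 in 7 each.

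The remaining called genes with a symbol, all higher in DB#1, are named so that every one is accounted for. Of the 48 called genes with a symbol, 17 fall outside the rule for named genes and were named after their values were seen: Rangrf, Gm15910, Sult6b1, Spint1, Fitm1, Mfsd2a, Carmn, Crb2, Cnksr2, Rbpms2, Prcd, Ap1s3, Emp1, Tph2, Neto2, Ydjc and Gm28321. Arhgap45, a GTPase-activating protein, differed by 1.57 ± 0.20 (SE, adjusted p 0.000299; 2 probes, 1.36 and 1.57), and at 1.03 to 1.58 DB#1 was above all other melanoma lines. Flywch2 (2.27), Maats1 (1.56) and Ippk (1.30; a kinase of inositol phosphates) were lower on all DB#3 arrays than on any array of the other melanoma lines. Art5 (1.75) was at -2.71 to -2.19 in DB#3, and D replicate 4 (-3.12) read lower still. Tph2, the enzyme of serotonin synthesis in neurons, differed by 0.91 ± 0.11 (SE, adjusted p 0.000106) with an SD of 0.05 (n = 4) and 0.10 (n = 3), and no array of M, D or DB#2 exceeded -0.93 while DB#1 lay at -0.21 to -0.10. Cnksr2, a scaffold of Ras signalling, differed by 1.25 ± 0.13 (SE, adjusted p 2.15e-05), at -1.76 to -1.46 in DB#1 and -2.96 to -2.83 in DB#3.

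Gm15910 (at least 1.98-fold), Sult6b1, a sulfotransferase (at least 2.00-fold), and Fitm1, a protein of lipid droplet formation (at least 2.13-fold), were dark in DB#3. Carmn, a long noncoding RNA gene (1.65), Rbpms2 (1.14), Prcd (1.09), Ap1s3 (0.94), Emp1 (0.93), Neto2 (0.72) and Ydjc (0.68) had adjusted p between 0.00202 and 0.0476. A further 11 called names, 8 higher and 3 lower in DB#1, had no symbol in the RefSeq table and are not named. Of the 3 lower ones, 2 were dark in DB#1 and at least 6.03-fold and at least 4.37-fold lower there, and 1 was lower by 2.26-fold.

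**Figure D4:**
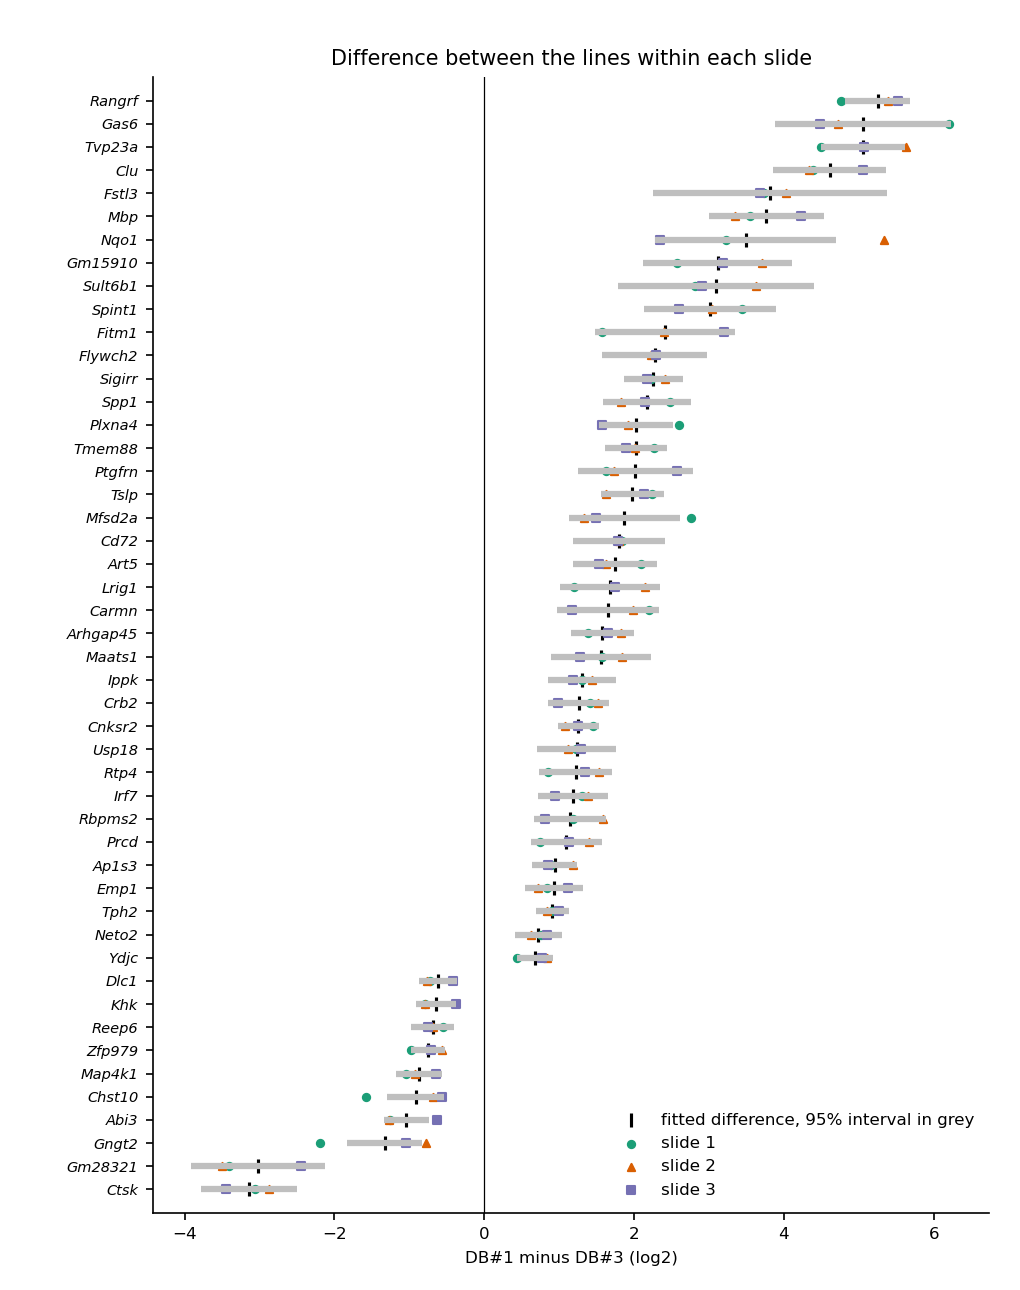
Difference between DB#1 and DB#3 (log2, x axis) for the 48 called genes with a symbol (rows), as fitted with its 95% interval (black tick, grey bar) and as measured within each of the 3 slides (coloured points). All points of a gene lie on the same side of 0, for genes called from these same arrays. The points of Nqo1, Gas6 and Fitm1 lie farther apart than those of the other genes.

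The levels in M and D, the lines before them, were set beside the differences. Among the 48 genes called with at least a 2-fold difference, 15 had DB#1 within 2-fold of both M and D and DB#3 not, and in 12 of these DB#3 was the lower line. Rangrf, Flywch2, Plxna4, Tmem88, Mfsd2a, Maats1, Ippk, Usp18, Rtp4 and Irf7 belonged here, as did Ctsk and Gm28321, which were higher in DB#3. Conversely, 12 genes had DB#3 within 2-fold of both M and D and DB#1 not, and in 10 of these DB#1 was the higher line, among them Spint1, Spp1, Ptgfrn, Art5, Gm15910, Fitm1 and Rbpms2. In the other 19 neither or only part of these limits was met, as for Clu, and in 2 both lines stayed within them. Without D replicate 3, Gas6, Fstl3 and Sult6b1 moved from these 19 to the genes in which DB#1 alone lay outside the limits, 15 in all. These classes were set after the values were seen and carry no test.

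DB#2 was nearer to DB#1 in 36 of the 59 called genes and nearer to DB#3 in 23. D was nearer to DB#1 in 28 and to DB#3 in 31. These counts were not taken over all genes tested, so no background share stands beside them. The 59 genes were called for a difference between DB#1 and DB#3 on these same arrays. Gas6, Sult6b1, Spint1, Spp1, Art5 and Cd72 were high in both DB#1 and DB#2. In Cd72 every DB#3 array was also above every array of M and D. Clu, Mbp, Sigirr, Fstl3, Arhgap45 and Tph2 were higher in DB#1 than on every array of DB#2.

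**Figure D5:**
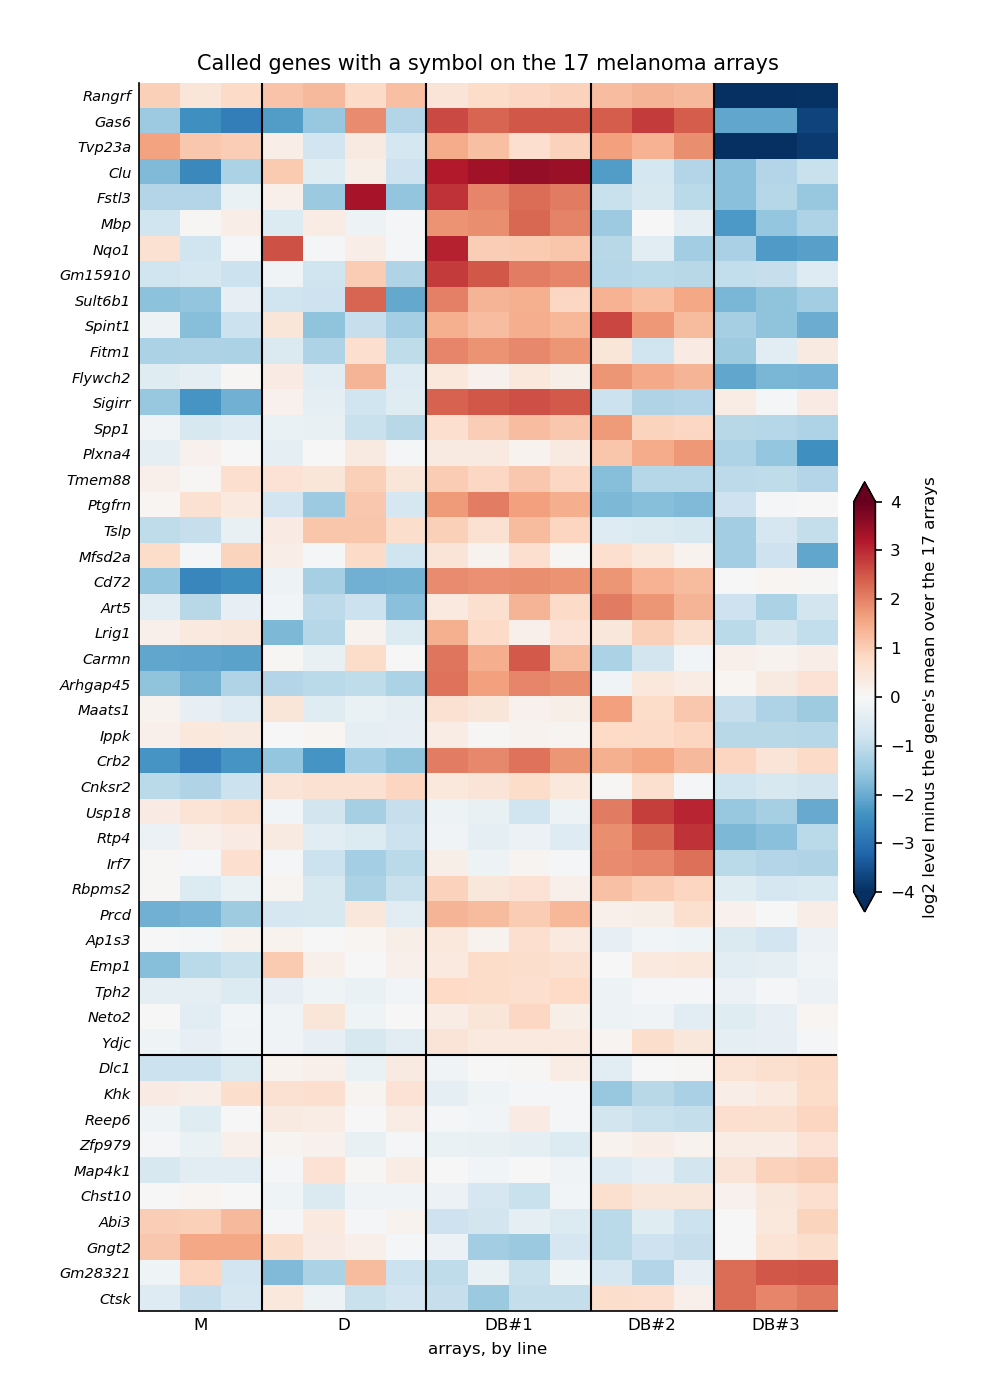
Level of the 48 called genes with a symbol (rows, sorted by difference) on the 17 arrays of the melanoma lines (columns), as log2 level minus the mean of the gene over these arrays, in red above and blue below it. The DB#3 columns are dark blue for Rangrf and Tvp23a, and the DB#1 columns dark red for Clu.

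Genes that led earlier comparisons of these lines with M or D were looked at as well, as a description. Fkbp10, a chaperone of collagen folding, differed by 0.0089 between DB#1 and DB#3, with a 95% interval of -0.65 to 0.67. The interval of Gstt2 (-0.046, -0.55 to 0.46) also lay within 2-fold. Those of Mgll, a monoglyceride lipase (-0.43, interval -1.20 to 0.33), Kcnj13 (0.55, interval -0.60 to 1.70) and Trpm1 (-0.031, interval -1.33 to 1.27) reached past 2-fold and were too wide to call the lines alike. Mocos, a molybdenum cofactor sulfurase, read lower in DB#1 by a difference of -1.81 ± 0.39 (SE) with an adjusted p of 0.0612, and was called in 7 of 22 alternative settings (adjusted p 0.0118 to 0.885). Rcn3, an endoplasmic reticulum protein, differed by 1.14 ± 0.32 (SE) with an adjusted p of 0.389. Both had intervals that excluded 0 before adjustment.

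How firmly a gene was called varied. Over 22 alternative settings, 20 of the 59 were called in every one that tested them, among them Rangrf, Gas6, Tvp23a, Clu, Mbp, Sigirr, Tmem88, Plxna4, Arhgap45, Tph2, Gm15910 and Ctsk, and 12 more were lost in only 1 or 2. No called gene changed sign in any setting (0 genes). Neto2 was called in 1 of 22 settings, Prcd and Sult6b1 in 6 each and Carmn and Emp1 in 7. Irf7, Rtp4 and Maats1 held in 8, Rbpms2 in 9, Usp18 in 10 and Fitm1 and Ydjc in 13. Sult6b1, Carmn, Usp18 and Fitm1 were tested in 21 settings.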

How the data were processed

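Total RNA of 7 cell lines was measured on 24 one-colour Agilent whole-mouse 8x60K arrays, 1 sample per array, on 3 slides. Per the labels and file headers, the authors labelled cRNA with cyanine 3 and extracted a scanner table for each array with Agilent Feature Extraction 10.7.3.1. The deposited values are intensities on a linear scale (gProcessedSignal), background-subtracted and detrended by that software and not scaled between arrays. The deposited series table held the same intensities (1511424 of 1511424 values equal) and served as the unscaled alternative. How the authors normalized values in GeneSpring was not given in the sources used here.

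Spots marked as outliers were left out, spots of a probe were averaged, and log2 intensity minus each array's 75th percentile was taken (Python 3.11.15, pandas 2.3.3). Of 56605 probes 56488 remained, and 0 non-control spots were saturated. Probes were named through RefSeq accessions (32917 probes, 22881 symbols). The array design refers to mm9, so file coordinates were not used. A gene with several probes took the brightest. Groups were taken from the sample titles, and no 2 arrays held identical values. DB#1 and DB#3 were compared with limma 3.58.1 (R 4.3.3) on all 24 arrays with line and slide as terms (15 residual degrees of freedom), among genes that the scanner software marked as above background on all arrays of DB#1 or all of DB#3, and p-values were adjusted by Benjamini-Hochberg over all 20556. Each slide was scanned once, so slide and scan are the same batch. The number of arrays limits the precision: the median half-width of a 95% interval was 0.38 on the log2 scale. Where a gene was dark in a line on every array by all its probes, or by its brightest probe for Rangrf, the fold is a bound, with the dim line set at the higher of its own signal and the lowest signal well above background on that array.

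Named genes were, among called genes with a symbol, up to 12 of the largest differences in each direction read on all 7 arrays, up to 6 of the largest bounds, called members of the gene lists and 13 genes that led earlier comparisons. The members, the gene lists and these rules were chosen with earlier results of these data known. The scripts were tested on simulated data. Alternatives changed the block, the arrays in the fit, the scaling, the background correction, the filter, the probe rule and the spread model, and left out each DB#1 and DB#3 array in turn and D replicate 3.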

Additional observations from a re-analysis of the deposited data

Results flagged for a closer look

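In 5 of the 55 genes tested this way, 1 of the 4 DB#1 arrays lay far from the others by Dixon's criterion, which chance alone meets in about 1 in 20 groups. Nqo1 read -1.02 on DB#1 replicate 1 and -3.12 to -3.01 on the other DB#1 arrays. Ctsk read -3.91 on DB#1 replicate 2 beside -3.38 to -3.33, and Usp18 read -3.02 on DB#1 replicate 3 beside -2.52 to -2.42. The remaining deviations were smaller: Plxna4 read -0.96 on DB#1 replicate 3 beside -0.76 to -0.74, and Ydjc read -0.65 on DB#1 replicate 1 beside -0.77 to -0.75.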

How the results depend on the processing

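The direction of all 59 called genes held under 22 alternatives (0 reversed), while their number moved. With the replicate number as a block in place of slide, 36 genes were called (30 higher and 6 lower in DB#1), and with both blocks 56. DB#1 and DB#3 share only replicate numbers 3 and 4, whose arrays deviated from their line means with correlations of -0.743 and 0.513. The arrays of each of these pairs lie on different slides. The correlations therefore cannot tell whether a replicate number marks a shared batch. No filter on dim probes gave 37 genes (30 higher, 7 lower). Genes well above background on all 7 arrays gave 30 (21 higher), 22 of them at least 2-fold different. Unscaled values gave 6 lower genes, and normexp, run on median spot signals as an alternative chosen after seeing the data, gave 28 genes at least 2-fold different.

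Leaving out 1 DB#1 or DB#3 array at a time, or D replicate 3, gave 35 to 78 called genes, 29 to 59 higher, 6 to 25 lower and 31 to 62 at least 2-fold different. Without DB#1 replicate 2, DB#1 replicate 3, DB#3 replicate 4 and DB#3 replicate 5 the called genes numbered 39, 39, 38 and 35, of which 7, 7, 7 and 6 were lower, and without DB#1 replicate 1 there were 25 lower genes.

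Mocos, uncalled, was called with the replicate block in place of slide (adjusted p 0.0278) and with both blocks (0.0198). Only uncalled differences near 0 changed sign. Fkbp10 turned to -0.042 with no slide block, -0.14 with the replicate block in place of slide and -0.14 with both, -0.0033 with only the 7 arrays, -0.016 with only the 17 melanoma arrays, -0.032 with normexp and -0.0032 with slide as a random block, and ran from -0.15 to 0.18 when 1 array was left out. Gstt2 turned to 0.044 and 0.051 under the replicate block without and with slide and to 0.055 unscaled, and ran from -0.22 to 0.13 with 1 array left out. Trpm1 turned to 0.070 unscaled and 0.49 by the median of its probes, and ran from -0.29 to 0.52 with 1 array left out. The cause was not tested for any of these.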
